A study of Mus musculus with 12 samples.

Results

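The genes described here encode voltage-gated calcium channels: 7 of the genes for the pore-forming alpha1 subunit (Cacna1a, Cacna1b, Cacna1c, Cacna1d, Cacna1e, Cacna1g and Cacna1h) and 3 of those for the auxiliary alpha2delta subunit (Cacna2d1, Cacna2d2 and Cacna2d3). They were taken by symbol from the gene identifiers of the count tables, which makes 10 of the 46603 genes listed, and all 10 passed the filter on low counts in every comparison. RNA was sequenced from microdissected neocortex of Chd8+/+ mice and of Chd8+/- mice, which carry 1 null allele of Chd8, the gene for a chromatin remodelling factor. Tissue was taken at E12.5 (both hemispheres) and at P5 (1 hemisphere), with 3 libraries per genotype and stage and 12 in all. All mice were on a C57Bl/6J background, and the null allele was made by deleting an exon with a ubiquitous β-actinCre that was later bred out, so every cell type of the Chd8+/- cortex is heterozygous. Each library held between 38774591 and 54695236 counts on genes. The labels give neither sex nor litter, so p-values measure the spread between these libraries, and in bulk tissue fewer cells of a type cannot be told apart from less RNA per cell.

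Voltage-gated calcium channels open when the membrane depolarizes, and the calcium that enters drives transmitter release, dendritic signalling and transcription in neurons. The alpha1 subunit forms the pore and sets the kind of current. P/Q, N and R types (Cacna1a, Cacna1b and Cacna1e) and L types (Cacna1c and Cacna1d) need a stronger depolarization than T types (Cacna1g and Cacna1h). T types open near the resting potential and close quickly. The alpha2delta subunits lie outside the membrane, bring channels to the cell surface and act at synapses.

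RefSeq promoter windows (GRCm38.p6) were found for 7 of the 10 genes and not for Cacna1a, Cacna1g and Cacna1h. Shown are 4 windows of 250 bases before a start, free of annotated exons: those of Cacna1d and Cacna2d3, which rose most between the stages, that of Cacna2d1, which rose least among the genes that passed the test, and that of Cacna1b, which lay between. They lie at chr2:24763153-24763402 (Cacna1b, minus strand), chr14:30353487-30353736 (Cacna1d, minus strand, an internal start), chr5:15934441-15934690 (Cacna2d1, plus strand) and chr14:29721865-29722114 (Cacna2d3, minus strand), and capitals mark the GC box GGGCGG, or CCGCCC where it lies on the other strand.
Cacna1b: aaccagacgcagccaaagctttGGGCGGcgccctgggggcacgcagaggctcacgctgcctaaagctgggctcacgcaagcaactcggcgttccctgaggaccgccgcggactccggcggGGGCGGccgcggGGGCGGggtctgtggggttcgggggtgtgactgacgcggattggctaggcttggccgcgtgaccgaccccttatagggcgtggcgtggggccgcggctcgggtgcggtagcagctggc
Cacna1d: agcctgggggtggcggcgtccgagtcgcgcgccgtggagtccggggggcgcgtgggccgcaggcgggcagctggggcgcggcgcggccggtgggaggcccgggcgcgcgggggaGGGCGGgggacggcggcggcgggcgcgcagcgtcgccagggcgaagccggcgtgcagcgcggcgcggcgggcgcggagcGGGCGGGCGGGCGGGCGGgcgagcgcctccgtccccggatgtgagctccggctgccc
Cacna2d1: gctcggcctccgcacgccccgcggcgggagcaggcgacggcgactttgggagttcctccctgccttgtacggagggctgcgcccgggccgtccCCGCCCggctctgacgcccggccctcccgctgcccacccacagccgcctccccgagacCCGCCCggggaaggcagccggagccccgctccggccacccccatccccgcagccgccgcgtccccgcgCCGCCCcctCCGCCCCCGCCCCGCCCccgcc
Cacna2d3: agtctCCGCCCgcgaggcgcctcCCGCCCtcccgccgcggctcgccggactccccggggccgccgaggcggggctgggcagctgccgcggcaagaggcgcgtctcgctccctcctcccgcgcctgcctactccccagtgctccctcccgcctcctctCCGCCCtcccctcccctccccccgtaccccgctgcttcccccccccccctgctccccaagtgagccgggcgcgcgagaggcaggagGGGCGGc
All 4 were rich in G and C, with 72.0% in Cacna1b, 86.4% in Cacna1d, 82.4% in Cacna2d1 and 80.0% in Cacna2d3, against a median of 52.4% over the 32851 windows of all genes. They held 29, 50, 36 and 30 CpG dinucleotides, against a median of 6. The GC box was found 3 times in Cacna1b, 5 times in Cacna1d, 6 times in Cacna2d1 and 4 times in Cacna2d3, overlapping copies counted singly, and 32.7% of all windows held at least 1. None of the 4 held a TATA box (TATAAA, in 12.4% of all windows) or a cyclic AMP response element (TGACGTCA, in 1.55%), and Cacna1b alone held CCAAT, which 33.8% of all windows held. The windows not shown were more varied. Of all 10 windows of the 7 genes, which count 3 starts of Cacna1c and 2 of Cacna1d, 6 held a GC box. Those of Cacna1e (52.0% G and C), of 2 starts of Cacna1c (50.4% and 51.6%) and of the other start of Cacna1d (39.6%, with 3 TATA boxes) held none, and lay below the median of all windows in G and C.

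Chd8 was measured first as a check of the genotype labels. At E12.5 its normalized counts (CPM, the count of a gene relative to its library's total after TMM scaling) were 234, 229 and 235 in Chd8+/+ libraries and 162, 167 and 161 in Chd8+/- libraries (log2 fold change -0.51 ± 0.039 SE, adjusted p = 0.00562, edgeR's quasi-likelihood test). At P5 they were 151, 151 and 145 against 95.7, 98.6 and 95.0 (-0.61 ± 0.034, adjusted p = 7.21e-05). The labelled tissue also held its markers: summed CPM of 7 markers of cortical excitatory neurons were 427 to 617 at E12.5 and 1140 to 1240 at P5, and those of 7 progenitor markers were 2470 to 2660 and 205 to 236.

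The first question was how the channel genes change as the neocortex develops. In Chd8+/+ libraries 9 of the 10 genes rose from E12.5 to P5 and none fell (adjusted p under 0.05 in edgeR, the threshold for a called gene throughout), where 41.7% of the 19039 genes tested rose and 42.3% fell. The median log2 fold change of the 10 was 2.41, against -0.02 over all genes. A rise of more than 2-fold was seen in 8 of the 10 and in 26.1% of all genes tested. Stage cannot be told apart from the number of hemispheres taken, the sequencing or the separate count table of each stage.

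Among the presynaptic channels, Cacna1a, the pore of P/Q-type channels that trigger fast transmitter release, was at 27.0, 23.6 and 22.8 CPM in the E12.5 Chd8+/+ libraries and at 171, 169 and 168 CPM in those of P5. It rose 6.92-fold (log2 fold change 2.79 ± 0.059 SE, adjusted p = 7.04e-13). Cacna1b, the pore of N-type channels with a similar role at many terminals, was at 35.2, 37.8 and 29.7 CPM at E12.5 and at 210, 203 and 211 CPM at P5, a rise of 6.08-fold (2.60 ± 0.072, adjusted p = 6.52e-12). The groups were far apart for both. Cacna1e, the pore of R-type channels, went from 35.7, 39.3 and 31.3 CPM to 281, 261 and 300 CPM, which were the highest counts of the 10 genes before length was taken into account. Its rise was 7.93-fold (2.99 ± 0.080, adjusted p = 4.76e-12).

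The L-type genes differed in how much they rose. Cacna1c, the main L-type pore of brain and heart, was at 30.1, 29.9 and 24.0 CPM at E12.5 and at 128, 122 and 138 CPM at P5 (4.62-fold, log2 fold change 2.21 ± 0.082, adjusted p = 8.88e-11). Cacna1d, an L-type pore that opens at less depolarized potentials than Cacna1c, started lowest, at 7.25, 7.72 and 6.58 CPM, and reached 75.3, 70.5 and 78.2 CPM. This was the largest rise of the 10 genes, at 10.4-fold (3.38 ± 0.076, adjusted p = 1.17e-12). Of its merged exons 5.60% overlap genes on the other strand, and the P5 counting command used no strand. Such overlap was 3.81% for Cacna1a, 1.62% for Cacna1h, 1.03% for Cacna2d2 and 5.12% for Chd8. The 2 T-type genes rose less. Cacna1g was at 87.3, 70.6 and 71.7 CPM at E12.5 and at 222, 198 and 223 CPM at P5 (2.80-fold, 1.48 ± 0.078, adjusted p = 2.43e-09). Cacna1h went from 79.3, 71.2 and 62.1 CPM to 183, 168 and 204 CPM (2.61-fold, 1.38 ± 0.087, adjusted p = 1.47e-08). The stages did not overlap for either gene.

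The alpha2delta genes ranged from no call for Cacna2d2 to a rise of 10.1-fold for Cacna2d3. Cacna2d1, whose product binds the drug gabapentin, was already at 113, 113 and 102 CPM at E12.5 and reached 196, 197 and 201 CPM at P5 (1.81-fold, log2 fold change 0.85 ± 0.046, adjusted p = 2.99e-09). Cacna2d2, the other gabapentin-binding form, was at 73.0, 63.2 and 58.0 CPM at E12.5 and at 78.6, 66.8 and 66.7 CPM at P5. These ranges overlapped, and the difference of 0.13 ± 0.086 did not pass the test (adjusted p = 0.181). Without the highest E12.5 library, Chd8+/+ replicate 1, it was 0.20 with an adjusted p of 0.0335. Cacna2d3, a form that does not bind gabapentin, went from 10.1, 11.7 and 9.43 CPM to 102, 106 and 105 CPM, a rise of 10.1-fold (3.33 ± 0.074, adjusted p = 1.05e-12).

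**Figure D1:**
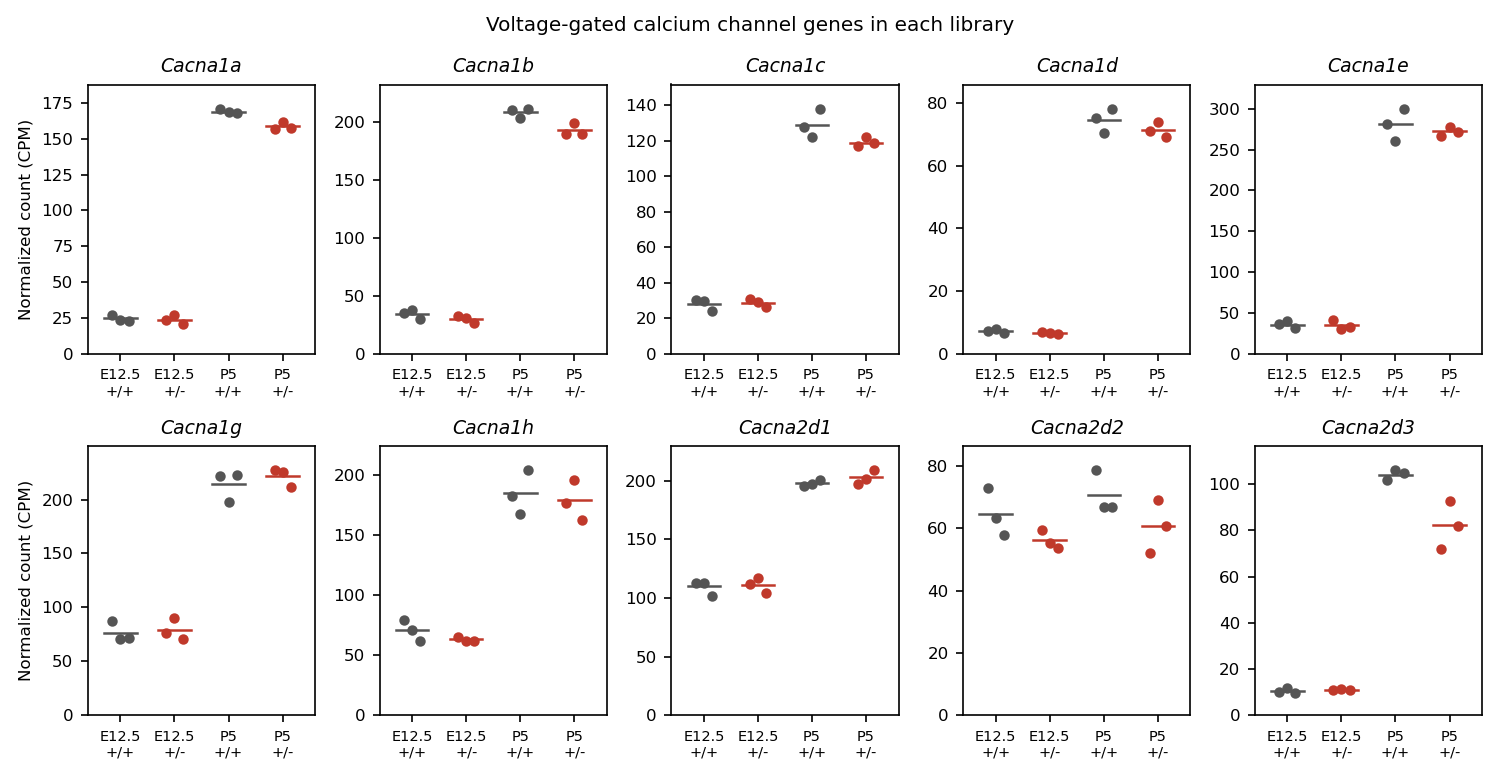
Normalized counts (CPM, linear axes from 0) of the 10 channel genes in each of the 12 libraries, with points for libraries and lines for group means of 3. At P5 every gene but Cacna2d2 lay above all E12.5 libraries, and Cacna2d3 was at 102 to 106 CPM in P5 Chd8+/+ libraries and at 72.1 to 92.6 CPM in P5 Chd8+/- libraries.

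The Chd8+/- libraries, compared between the stages on their own, gave 9 of 10 genes as higher at P5 as well, where 41.7% of 18894 genes tested rose and 41.5% fell. Cacna1d had the largest rise there too (10.8-fold, log2 fold change 3.44 ± 0.063, adjusted p = 1.97e-10), and Cacna2d2 again did not pass the test (0.13 ± 0.094, adjusted p = 0.24). Without the lowest P5 library, Chd8+/- replicate 1, Cacna2d2 was at 0.25 with an adjusted p of 0.0143. Cacna2d3 rose 7.52-fold (2.91 ± 0.092, adjusted p = 3.47e-09). The rises of the other genes lay between 0.88 for Cacna2d1 and 2.99 for Cacna1e on the log2 scale.

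**Figure D2:**
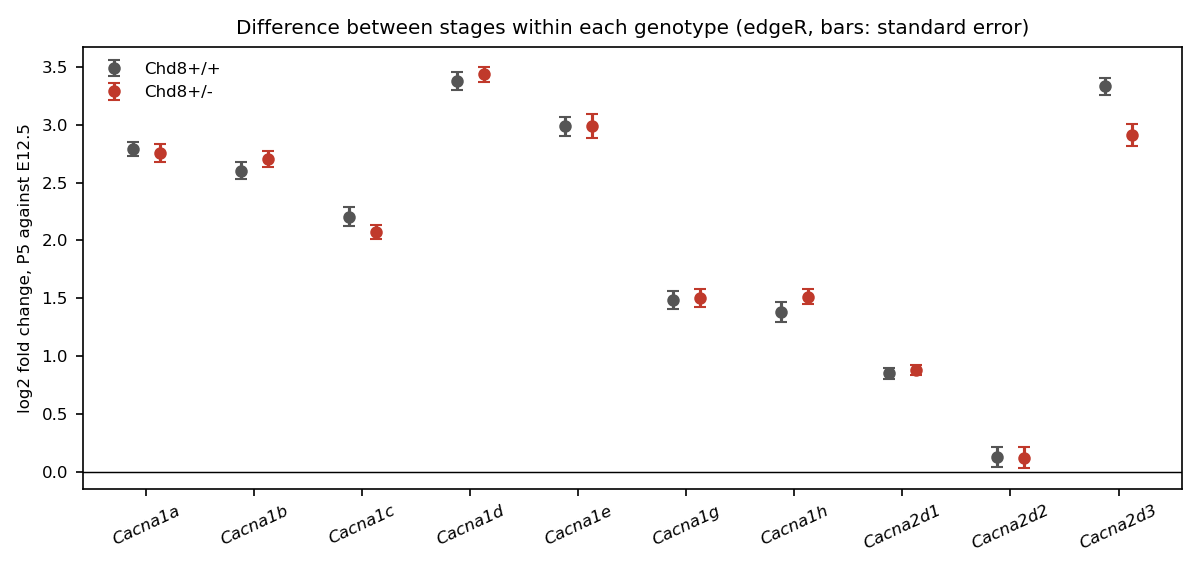
Log2 fold change of each channel gene from E12.5 to P5 within Chd8+/+ and within Chd8+/- libraries (points), with standard errors from edgeR (bars). Cacna1d is highest in both genotypes at 3.38 and 3.44, Cacna2d2 lies near 0, and Cacna2d3 is at 3.33 in Chd8+/+ and 2.91 in Chd8+/-.

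Most of the channel genes are very long, from 59.5 kb for Cacna1h to 816.9 kb for Cacna2d3, and 8 of the 10 were in the longest 10% of genes tested. Those 1904 genes had a median stage difference of 0.68, against -0.08 for the other 17135. When each library's trend with genomic span was removed by an offset, the rises were smaller (3.38 became 2.13 for Cacna1d and 3.33 became 1.68 for Cacna2d3), and Cacna2d1 and Cacna2d2 were lower at P5, at -0.38 and -0.43 (adjusted p = 8.82e-06 and 0.000267). That offset also moved the median of all genes from -0.02 to -0.21. The other 8 genes stayed higher at P5, with log2 fold changes of 0.76 for Cacna1c to 2.13 for Cacna1d.

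Levels of different genes were compared per kb of merged exons. At E12.5 in Chd8+/+ libraries the order ran from Cacna2d1 (8.82 ± 0.50 CPM per kb, SD, n = 3) through Cacna2d2 (8.14 ± 0.96), Cacna1g (7.55 ± 0.92) and Cacna1h (7.26 ± 0.88), whose neighbours overlapped in range, to Cacna1b (3.45 ± 0.42), Cacna2d3 (2.81 ± 0.31), Cacna1a (2.14 ± 0.20), Cacna1e (1.43 ± 0.16), Cacna1c (1.32 ± 0.16) and Cacna1d (0.777 ± 0.062). Ranges did not overlap between Cacna1h and Cacna1b, between Cacna2d3 and Cacna1a, between Cacna1a and Cacna1e, or between Cacna1c and Cacna1d. At P5 Cacna2d3 came first (28.3 ± 0.51), clear of Cacna1g (21.1 ± 1.4), Cacna1b (20.9 ± 0.43) and Cacna1h (18.9 ± 1.9), which overlapped in turn. Cacna2d1 (15.9 ± 0.20), Cacna1a (14.8 ± 0.12) and Cacna1e (11.3 ± 0.80) followed without overlap, then Cacna2d2 (8.90 ± 0.86) and Cacna1d (8.08 ± 0.42), which overlapped, and last Cacna1c (6.10 ± 0.40). In P5 Chd8+/- libraries Cacna2d3 (22.2 ± 2.8) was again first but overlapped Cacna1g (21.9 ± 0.85).

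As shares of the summed CPM per kb of all alpha1 genes, including Cacna1i, Cacna1f and Cacna1s, T-type genes made up 62.6% ± 2.0 (SD, n = 3) of the E12.5 Chd8+/+ libraries and 45.1% ± 0.80 of the P5 Chd8+/+ libraries. P/Q-, N- and R-type genes went from 28.7% ± 1.5 to 42.1% ± 0.93, and L-type genes from 8.72% ± 0.45 to 12.8% ± 0.17. The summed level of all alpha1 genes was 24.5 ± 2.4 CPM per kb at E12.5 and 112 ± 5.3 at P5, so every class was higher at P5 while T types lost share. Within the T types, the third gene, Cacna1i, made up 2.28% of all alpha1 genes at E12.5 and 9.29% at P5. Among alpha2delta genes, Cacna2d1 and Cacna2d2 held 44.6% ± 1.1 and 41.0% ± 2.2 at E12.5, and at P5 Cacna2d3 held 53.1% ± 1.2, with 30.0% ± 0.47 for Cacna2d1 and 16.7% ± 1.5 for Cacna2d2. These shares were not tested.

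**Figure D3:**
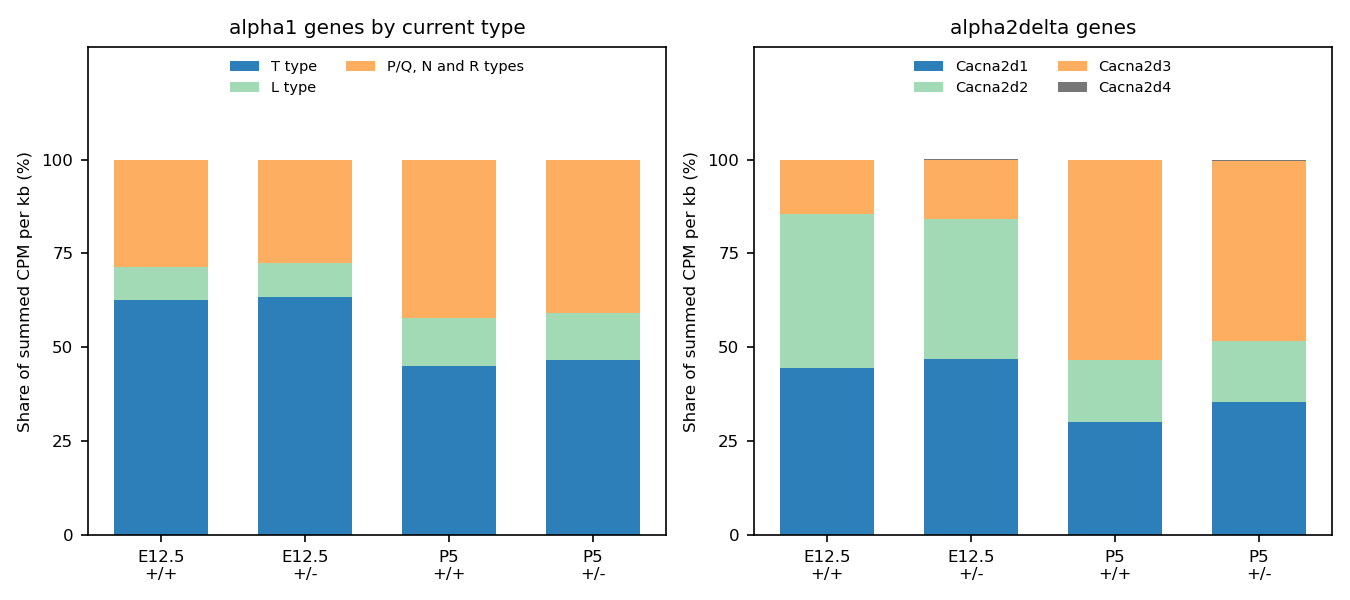
Mean shares (%, n = 3 libraries per bar) of the summed CPM per kb held by alpha1 genes of each current type (left) and by each alpha2delta gene (right) in the 4 groups. T types go from 62.6% to 45.1% in Chd8+/+ libraries and Cacna2d3 from 14.2% to 53.1%, while Cacna2d4 stays below 0.3% and is barely visible.

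Of the 16 other channel subunit genes listed, 15 rose with stage in Chd8+/+ libraries and none fell (median 1.93 on the log2 scale), where 41.7% of all genes rose and 42.3% fell, which is also the background of the next 3 lists. Cacna1i, the third T-type pore, had the smallest p, with 5.44, 6.11 and 4.93 CPM at E12.5 and 104, 101 and 102 CPM at P5 (4.22 ± 0.075, adjusted p = 2.05e-13). Cacng3, an auxiliary subunit of AMPA receptors, followed (4.73 ± 0.087, adjusted p = 2.54e-13). The beta subunit genes, whose products bind the channel from inside the cell, rose by 1.58 (Cacnb1), 1.12 (Cacnb2), 1.01 (Cacnb3) and 1.92 (Cacnb4). Cacng7 did not pass the test (0.08 ± 0.045, adjusted p = 0.127). Among 18 partners of the channels 16 rose and 1 fell: the release machinery genes Stx1a and Rims1 were up by 3.73 ± 0.046 and 3.84 ± 0.048 (adjusted p = 2.3e-14 for both), and Gem, a GTPase that restrains calcium currents, fell by 0.76 ± 0.15 (adjusted p = 0.000413). Among 22 genes of calcium stores and extrusion 19 rose, with the smallest p for the calcium pump Atp2b2 and the sodium-calcium exchanger Slc8a2 (3.50 ± 0.055 and 2.81 ± 0.056, adjusted p = 9.06e-14 and 4.18e-13), and the inositol trisphosphate receptor gene Itpr3 fell by 0.59 ± 0.099 (adjusted p = 0.00014). Among 21 calcium-dependent kinases, phosphatases and transcription factors 18 rose, with the smallest p for Camk4 and Mef2c (5.30 ± 0.061 and 4.93 ± 0.078, adjusted p = 1.61e-14 and 9.19e-14), and 3 fell, among them Nfatc3 and Creb1 (-2.21 ± 0.058 and -1.71 ± 0.047, adjusted p = 4e-12 and 6.28e-12). The same comparison holds markers of other cells that also moved: all 7 markers of striatal neurons, 5 of 6 of astrocytes, 4 of 5 of oligodendrocyte precursors and all 6 of microglia rose with none falling, and all 7 of progenitors fell. The other lists were mixed, with 4 of 6 choroid plexus markers rising and 2 falling, 1 and 4 of 6 for endothelium, 1 and 4 of 5 for erythrocytes, 3 and 3 of 7 for GABAergic interneurons, 4 and 2 of 7 for cortical excitatory neurons and 2 and 3 of 5 for meninges. The part of these cells in the stage results was not tested.

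The second question was whether loss of 1 Chd8 allele alters the channel genes. At E12.5 no member passed the test in edgeR or in DESeq2, and edgeR called 0.00553% of the 18081 genes, which was Chd8 alone. At an unadjusted p under 0.05 there was 1 member, against 5.15% of all genes. No member had genotype groups that did not overlap, where 5.9% of all genes were lower and 5.45% higher in every Chd8+/- library. The median log2 fold change of the 10 was -0.04, with 6 lower and 4 higher. That 1 member was Cacna2d2, at 59.6, 55.4 and 53.6 CPM in Chd8+/- libraries against 73.0, 63.2 and 58.0 CPM in Chd8+/+ libraries (-0.21 ± 0.083, adjusted p = 0.942). Cacna1b (-0.20 ± 0.10) and Cacna1h (-0.17 ± 0.081) were next, both with an adjusted p of 0.942, and the other 7 lay between -0.11 for Cacna1d and 0.09 for Cacna2d3.

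At P5 the differences between the genotypes ran from -0.33 for Cacna2d3 and -0.20 for Cacna2d2 to 0.07 for Cacna1g on the log2 scale. edgeR called none of the 10, and 0.00536% of the 18666 genes tested, again Chd8 alone. DESeq2 called 1 of the 10 as lower in Chd8+/-, where it called 3.55% of 12467 genes as lower. Its calls over all genes in both directions, 651, went down to 57 without Chd8+/+ replicate 1 and up to 891 without Chd8+/- replicate 2. At an unadjusted p under 0.05 in edgeR 3 members were lower and none higher, against 9.77% of all genes lower and 8% higher. Every Chd8+/- library lay below every Chd8+/+ library for the same number, 3, where this held for 12.2% of all genes. The median of the 10 was -0.06, against 0.002 over all genes, with 8 lower and 2 higher.

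Cacna2d3 was at 102, 106 and 105 CPM in the P5 Chd8+/+ libraries and at 72.1, 92.6 and 81.8 CPM in the P5 Chd8+/- libraries. The groups did not overlap, and the Chd8+/- libraries were the more spread (SD 10.3 against 1.90 CPM, n = 3 each). The log2 fold change was -0.33 ± 0.070, or 0.796 of the Chd8+/+ level, with an adjusted p of 0.1 in edgeR and of 0.000603 in DESeq2. The gene was picked out in earlier work on these libraries, so its order among the 10 is no independent evidence. Leaving out 1 library at a time gave -0.24 to -0.42 in edgeR, and of these 6 fits the 1 without Chd8+/- replicate 2, the Chd8+/- library with the highest level, called it (adjusted p = 0.0183). Of the 6, that fit also called the most genes over all genes. edgeR also called Cacna2d3 when all genes with at least 1 count were kept (adjusted p = 3.15e-05). The calls over all genes under that filter are not given here. DESeq2 called Cacna2d3 in all 6 fits with 1 library left out, with adjusted p from 7.99e-09 to 0.023. Without Chd8+/- replicate 3, which stood apart (chi-squared per degree of freedom of 43.7 to the nearest library of its group, against at most 15.4 for the other 11 libraries), it was -0.32 (adjusted p = 0.203 in edgeR and 0.0135 in DESeq2).

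Of the other alpha2delta genes, Cacna2d2 was at 78.6, 66.8 and 66.7 CPM in Chd8+/+ and 52.2, 69.2 and 60.8 CPM in Chd8+/- libraries, which overlapped (-0.20 ± 0.092, adjusted p = 0.283). Cacna2d2 was called by edgeR when genes with at least 1 count were all kept (adjusted p = 0.0391), a filter whose calls over all genes are not given here. It was also called by DESeq2 without Chd8+/- replicate 2, a fit that called 891 genes in all. Cacna2d1 was at 196, 197 and 201 CPM against 197, 202 and 209 CPM (0.05 ± 0.037, adjusted p = 0.488). The summed alpha2delta level was 53.0 to 53.5 CPM per kb in Chd8+/+ and 42.1 to 50.2 in Chd8+/- libraries, and Cacna2d3 held 51.7% to 54.1% of it in the first and 46.3% to 49.9% in the second.

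Among the 7 alpha1 genes, 2 had groups that did not overlap at P5, Cacna1a and Cacna1b, both lower in Chd8+/-, as were 12.2% of all genes. Cacna1a was at 171, 169 and 168 CPM in Chd8+/+ and at 157, 162 and 158 CPM in Chd8+/- libraries, 0.947 of the control level (-0.08 ± 0.034, adjusted p = 0.269). Cacna1b was at 210, 203 and 211 CPM against 189, 199 and 189 CPM (-0.10 ± 0.038, adjusted p = 0.233). Neither was called by DESeq2 (adjusted p = 0.266 and 0.179). The L-type gene Cacna1c was at 128, 122 and 138 CPM against 117, 122 and 119 CPM (-0.10 ± 0.048, adjusted p = 0.317), and Cacna1d at 75.3, 70.5 and 78.2 CPM against 71.1, 73.9 and 69.3 CPM (-0.05 ± 0.045, adjusted p = 0.611). Cacna1e was at 281, 261 and 300 CPM in Chd8+/+ libraries, and all 3 Chd8+/- libraries lay inside that range, the lowest at 267 CPM (-0.03 ± 0.051, adjusted p = 0.818). The T-type genes overlapped as well: Cacna1g was at 227, 226 and 212 CPM in Chd8+/- (0.07 ± 0.053, adjusted p = 0.556) and Cacna1h at 177, 196 and 163 CPM (-0.03 ± 0.078, adjusted p = 0.864). The summed alpha1 level was 106 to 117 CPM per kb in Chd8+/+ and 106 to 112 in Chd8+/- libraries.

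Gene length moved with this comparison. The longest 10% of genes tested at P5, 1867 genes of at least 122 kb that include 8 of the 10 members, stood at a median of -0.07 on the log2 scale, with 72.8% lower in Chd8+/- and 27.6% lower at an unadjusted p under 0.05. The other 16799 genes had a median of 0.01, with 47.0% lower and 7.79% lower at that p. With the offset for genomic span 3 of the 10 members were lower instead of 8, and Cacna1a was at 0.0034 ± 0.039, Cacna1b at -0.03 ± 0.041 and Cacna1c at 0.0076 ± 0.055. That offset also moved the median of all genes from 0.002 to 0.014, which is above the values of Cacna1a and Cacna1c. Cacna2d3, the longest of the 10, was then at -0.22 ± 0.061 (adjusted p = 0.188 in edgeR and 0.0427 in DESeq2), and Cacna2d1 was higher at 0.15 ± 0.040 (0.184 and 0.0325). At E12.5 the longest 10% of genes had a median of 0.02, with 42.4% lower.

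**Figure D4:**
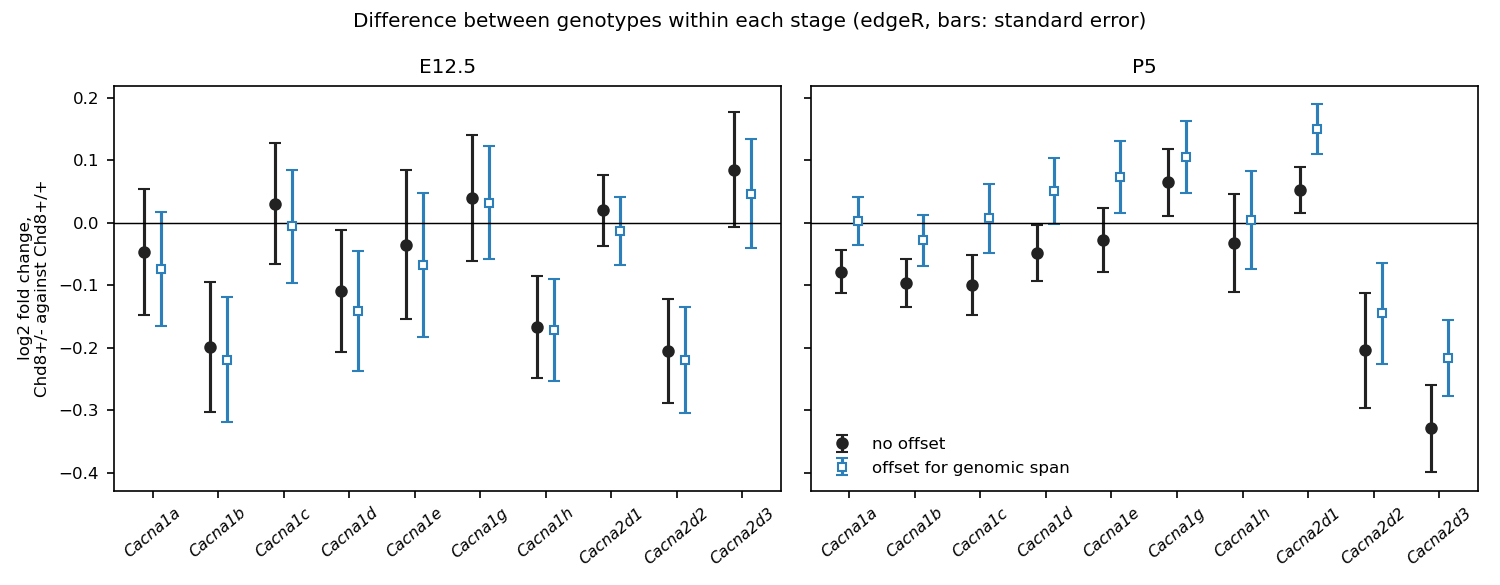
Log2 fold change of each channel gene in Chd8+/- against Chd8+/+ libraries at E12.5 (left) and P5 (right), with standard errors from edgeR, without (filled circles) and with (open squares) an offset for genomic span. At P5 Cacna2d3 lies lowest, at -0.33 and -0.22, while Cacna1a moves from -0.08 to 0.0034.

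Markers of several other cell types also differed between the genotypes at P5. Over all genes, 9.77% were lower and 8% higher at an unadjusted p under 0.05. All 7 markers of striatal medium spiny neurons were lower at an unadjusted p under 0.05 (median -0.30), with a summed level of 437 to 479 CPM in Chd8+/+ and 303 to 386 CPM in Chd8+/- libraries. All 6 choroid plexus markers were lower as well (median -0.71, 442 to 574 against 322 to 380 CPM), as were 5 of 6 endothelial markers (215 to 238 against 189 to 212 CPM) and 3 of 7 markers of GABAergic interneurons (635 to 653 against 531 to 613 CPM). Of 7 progenitor markers 3 were lower and 1 higher (median -0.11, 212 to 236 against 205 to 215 CPM), and of 5 erythrocyte markers 2 were lower and 1 higher. All 5 meningeal markers were higher, 2 of them at that p (median 0.15, 222 to 245 against 216 to 280 CPM). The 7 markers of cortical excitatory neurons had a median of 0.005, with 1 lower at that p (1140 to 1220 against 1140 to 1240 CPM). No marker of astrocytes, oligodendrocyte precursors or microglia passed that p in either direction (medians -0.029, 0.022 and 0.033). No marker of these lists was at 0 in all libraries of a group, and the part of these tissues in the values of Cacna2d3 and the other channel genes was not tested.

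Of the 16 other channel subunit genes none was called by edgeR at P5, with 1 higher and 2 lower at an unadjusted p under 0.05 (8% of all genes were higher and 9.77% lower). The higher one was Cacnb3, the most abundant beta subunit gene, at 293, 265 and 264 CPM in Chd8+/- and 241, 243 and 260 CPM in Chd8+/+ libraries (0.16 ± 0.051, adjusted p = 0.163 in edgeR and 0.0398 in DESeq2). Cacng5, an auxiliary subunit gene of AMPA receptors, was at 16.3, 15.9 and 16 CPM against 18.7, 18.4 and 17.6 CPM (-0.17 ± 0.056, adjusted p = 0.178). Among 22 genes of calcium stores and extrusion none was called by edgeR, 8 were lower at that p and none higher (9.77% of all genes were lower at that p, and 27.6% of the longest 10%), and DESeq2 called 5 as lower (3.55% of all genes). They had a median of -0.07, and the store-operated channel gene Orai2 (125, 131 and 125 against 112, 115 and 113 CPM, -0.15 ± 0.034) and the calcium pump gene Atp2b3 (52.8, 54.3 and 50.7 against 41.3, 47.7 and 44.3 CPM, -0.23 ± 0.054) had the smallest p, with an adjusted p of 0.11 for both in edgeR and of 0.0223 and 0.0118 in DESeq2. Of the 18 channel partners none was called, with 3 higher and 2 lower at that p, which 8% and 9.77% of all genes were, the first being Rims2 and Akap5 (-0.17 ± 0.046 and -0.18 ± 0.071). Of the 21 calcium-dependent regulators none was called, with 2 higher and 1 lower, the first being Camkk1 and Camk1d (0.14 ± 0.042 and -0.11 ± 0.038). At E12.5 none of these lists held a called gene. There 4 of the 17 partners tested were lower at an unadjusted p under 0.05, which 5.15% of all genes passed in either direction, with Rims2 at -0.28 ± 0.061 and Rimbp2 at -0.34 ± 0.092 first, and no gene of the other 3 lists passed that p. Endothelial markers moved in the same comparison, with 4 of 6 lower at that p and none higher (241 to 250 CPM summed in Chd8+/+ and 209 to 221 CPM in Chd8+/- libraries), as did 2 of 7 markers of GABAergic interneurons, and their part in these values was not tested.

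Whether the genotype difference changes with stage was tested as the interaction over all 12 libraries, which are the libraries of the comparisons above. edgeR called none of the 10 and 0% of the 19676 genes. DESeq2 called none of the 10, and 8 genes in all. At an unadjusted p under 0.05 there was 1 member, against 10% of all genes. This was Cacna2d3, whose genotype difference was 0.09 at E12.5, with 11, 11.1 and 11 CPM in Chd8+/- and 10.1, 11.7 and 9.43 CPM in Chd8+/+ libraries, and -0.33 at P5. These 2 values come from the separate fits of each stage. The interaction in the fit of all 12 libraries was -0.43 ± 0.12 (adjusted p = 0.362 in edgeR and 0.37 in DESeq2). In the same test all 6 choroid plexus markers (median -1.04, 5 at an unadjusted p under 0.05, 3 called by DESeq2) and all 7 striatal markers (median -0.41, 2 and 1) were also negative, and their part in the value of Cacna2d3 was not tested. For the other 9 channel genes the interaction lay between -0.15 for Cacna1c and 0.12 for Cacna1h, with standard errors of 0.069 to 0.14.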

How the data were processed

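Counts per gene and sequencing run were deposited by the authors. By their methods, paired-end reads were trimmed (Trim Galore 0.4.1), aligned to GRCm38.p4 (TopHat2 2.1.0) and counted (featureCounts 1.5.0). The values are raw counts without normalization. Libraries keep strand, but the P5 counting command sets none, and the E12.5 command is not given in the sources used here.

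The 2 runs of each library were summed, since chi-squared over degrees of freedom was 1.18 to 1.54 between runs of a library and at least 7.09 between libraries of a group. Symbols were found for 46005 of 46603 identifiers. Each comparison was fitted over all genes with edgeR 4.0.16 (R 4.3.3), with TMM scaling, filterByExpr, quasi-likelihood testing and p-values adjusted by Benjamini-Hochberg (threshold 0.05). DESeq2 1.42.0 without shrinkage, other scalings and filters, loess offsets (span 0.5) for exonic length or genomic span and libraries left out were alternatives. 3 additions came after the data were seen: DESeq2 with the span offset or with libraries left out, and a limit of 1 on the log2 stage difference. The code was tested on simulated data. Promoters came from RefSeq (GRCm38.p6). Tables and figures used Python 3.11.15, pandas 2.3.3 and matplotlib 3.10.9.

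Named are all 10 members, Chd8, and from each list the 2 genes with the smallest p per genotype comparison and, between stages in Chd8+/+ libraries, the 2 with the smallest p in each direction, and any other channel subunit in that comparison. The members and lists were chosen with earlier results of these data known. Each value is limited by 3 libraries per group.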

Additional observations from a re-analysis of the deposited data

How the results depend on the processing

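The stage rise of 9 of 10 channel genes was kept in direction and call for Cacna1a to Cacna1h and Cacna2d3 under every alternative, in both genotypes. Cacna2d1 with the offset for genomic span was at -0.377 in Chd8+/+ and -0.219 in Chd8+/- libraries. Cacna2d2, not called, was at -0.425 and -0.346 with that offset and at -0.101 and -0.052 with the offset for exonic length. No interaction or E12.5 genotype difference of a channel gene was called under any alternative.

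At P5, where edgeR called 0 channel genes, DESeq2 called 1 (Cacna2d3), edgeR on all genes with at least 1 count called 2 (Cacna2d2 and Cacna2d3), and DESeq2 with the span offset called 2 (Cacna2d1 higher and Cacna2d3 lower). For the last 2 settings the calls over all genes are not given here, so these counts have no background beside them. Over all genes DESeq2 called 651 and edgeR 1, and with 1 library left out DESeq2 called between 57 (without Chd8+/+ replicate 1) and 891 (without Chd8+/- replicate 2) and edgeR between 1 and 327 (without Chd8+/- replicate 2). Leaving out 1 library gave 0 to 2 calls over both tools, and edgeR's 1 call came without Chd8+/- replicate 2. The cause was not tested.

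Differences near 0 changed sign. With the offset for genomic span the P5 values were 0.0034 (Cacna1a), 0.0076 (Cacna1c), 0.051 (Cacna1d), 0.074 (Cacna1e) and 0.0049 (Cacna1h) in edgeR, and 0.0032, 0.0076, 0.051, 0.074 and 0.0049 in DESeq2. With the offset for exonic length Cacna1d was at 0.011, Cacna1e at 0.073 and Cacna1h at 0.03. At E12.5 the span offset gave -0.0056 for Cacna1c and -0.013 for Cacna2d1. The interaction was 0.076 (Cacna1a), 0.0076 (Cacna1c), 0.136 (Cacna1e) and 0.077 (Cacna2d2) with the span offset, and 0.039, 0.101 and 0.05 for Cacna1a, Cacna1e and Cacna2d2 with that for exonic length. With 1 library left out, E12.5 values ran from -0.147 to 0.046 (Cacna1a), -0.174 to 0.051 (Cacna1e), -0.06 to 0.141 (Cacna1g), -0.07 to 0.091 (Cacna1c) and -0.028 to 0.063 (Cacna2d1). P5 values ran from -0.102 to 0.053 (Cacna1h) and -0.078 to 0.031 (Cacna1e). The interaction ran from -0.083 to 0.151 (Cacna1e), -0.065 to 0.118 (Cacna1g), -0.118 to 0.084 (Cacna2d2), -0.118 to 0.064 (Cacna1a) and -0.0055 to 0.073 (Cacna2d1).

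Same-numbered libraries of the genotypes did not deviate together at E12.5 (correlations -0.35, -0.163 and -0.2) and did so weakly at P5 (0.277, 0.108 and 0.0187), so the numbers were not taken as pairs. With the replicate block 0 channel genes were called at either stage, Cacna2d3 at P5 was at -0.336 (adjusted p = 0.163, edgeR), and over all genes 0 were called at E12.5 and 4 at P5. At P5 2 of the 3 Chd8+/- libraries correlated best with their own number.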
